A study of Mus musculus with 8 samples.

Results

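Transcripts of 9 receptors of the tumour necrosis factor (TNF) receptor superfamily were followed in mouse dendritic cells (DC): Tnfrsf1a, Fas, Tnfrsf21, Tnfrsf1b, Tnfrsf9, Tnfrsf11a, Tnfrsf4, Tnfrsf14 and Ltbr. They were taken by gene name from the array annotation, which held 17 probes for the 9 genes among 41174 probes for 27398 gene names. All 9 were detected on both replicates of 1 group or more and so were among the 15401 genes tested, through 16 of their 17 probes. The groups were miR-155 KO DC stimulated with lipopolysaccharide (LPS), miR-155 KO DC left unstimulated, WT DC stimulated with LPS and WT DC left unstimulated, with 2 arrays each. All came from male C57BL/6Jax mice, whose age the labels do not give, and were grown from bone marrow for 7 days in 40 ng/mL GM-CSF, a growth factor that drives DC and macrophage differentiation. Stimulated cultures received 100 ng/mL LPS for 16 h and were sorted as CD86+ cells, whereas unstimulated cells were sorted as CD86-. A comparison of LPS-treated with unstimulated cells is therefore also a comparison of sort gates, and the effects of LPS and of the gate cannot be told apart. The labels do not say whether replicates were separate animals or cultures, so p-values measure only the spread between these arrays.

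Receptors of this superfamily bind trimeric ligands of the TNF family and signal by recruiting adaptor proteins to their cytoplasmic tails. Some carry a death domain, which can assemble caspase-activating complexes, and others bind TRAF adaptors directly and activate the canonical or non-canonical NF-kB pathway. In DC such receptors are known for roles in maturation, survival and the exchange of signals with T cells, and miR-155 is a microRNA induced by LPS in myeloid cells.

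The mature miRNA of the gene labelled as deleted in the KO cells, and 3 of the receptors' promoter ends, are shown because they are the sequences the comparisons and the motif search turn on. Capitals mark the seed, bases 2 to 8, in the miRNA and the motif match in the promoters. The miRNA lies at chr16:84714143-84714165 on the plus strand, and each promoter line gives the 100 bases that precede an annotated start, 5′ to 3′ along the gene (RefSeq, GRCm38.p6).
mmu-miR-155-5p: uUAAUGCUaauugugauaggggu
Tnfrsf9, second start, chr4:150927899-150927998, plus strand: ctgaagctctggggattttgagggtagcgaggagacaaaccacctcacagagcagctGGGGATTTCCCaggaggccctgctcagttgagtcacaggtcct
Tnfrsf1b, chr4:145246871-145246970, minus strand: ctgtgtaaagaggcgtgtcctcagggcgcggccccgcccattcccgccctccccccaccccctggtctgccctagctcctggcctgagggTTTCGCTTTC
Tnfrsf14, chr4:154928078-154928177, minus strand: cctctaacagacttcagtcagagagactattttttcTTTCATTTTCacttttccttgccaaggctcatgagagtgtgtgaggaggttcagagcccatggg

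The 9 members had 10 such promoter windows, since Tnfrsf9 has an entry for each of 2 starts, and the 250 bases before each start were searched on both strands for 3 motifs. The NF-kB consensus was found in 1 of the 10 windows, that of the second Tnfrsf9 start, and in 7.25% of all 32851 windows of that length. There, 3 overlapping matches formed 1 stretch of 11 bases that begins 43 bases before the start. The core of the interferon-stimulated response element, searched as GAAA, 2 bases of any kind and GAAA, was found in 2 of the 10 windows, those of Tnfrsf1b and Tnfrsf14, and in 2.98% of all windows. In Tnfrsf1b it ended at the last base before the start, and in Tnfrsf14 it began 64 bases before it. The letters TATAAA were in none of the 10 windows and in 12.4% of all windows. These matches are a description of the letters in the windows.

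Signals are given on the scaled log2 scale, the log2 of the processed spot signal minus that array's 75th percentile, so that 0 is the signal of the 75th percentile spot. No spot was saturated, and 50.8% to 58.3% of an array's spots stood well above background. The first principal component of all genes held 75.5% of the variance and separated LPS-treated from unstimulated arrays, and the second held 9.57% and separated arrays numbered 2 from arrays numbered 1. The arrays lay on 2 slides of 4 arrays, with both KO LPS arrays on slide 2 and both WT unstimulated arrays on slide 1. The 9 DC markers tested, Itgax, Zbtb46 and Flt3 among them, were well above background on all 8 arrays, and no probe was named for Mir155, so the deletion itself was not checked. Markers of several other cell types moved with stimulation, in unlike directions. Of 9 stromal markers 5 were tested. Their summed level, in multiples of the 75th percentile, was 5.22 to 14.0 in KO LPS and 0.274 to 0.694 in KO unstimulated arrays. In WT cells it was 4.33 to 8.19 in LPS and 0.266 to 0.592 in unstimulated arrays. Dcn, Lum and Col1a2 were tested only because they were detected in the LPS groups, so this sum cannot serve as a test of a rise. Dcn and Lum were not well above background on any unstimulated array, and Col1a2 was not called in either genotype. The summed level of 7 mast cell and basophil markers was 6.08 to 113 in KO LPS and 1.15 to 2.05 in KO unstimulated arrays, and 15.0 to 115 in WT LPS and at most 3.57 in WT unstimulated arrays. That list was mixed, and most of its markers did not share the higher sum. Hdc and Kit were called higher in each genotype, Hdc by 8.87 in KO and 9.17 in WT cells. Cd200r3, Cpa3, Mcpt8 and Prss34 were called lower in each genotype, but were tested only because they were detected in unstimulated groups. The median of the list was -3.26 in KO and -3.49 in WT cells, and Cpa3 and Mcpt8 were not well above background on any LPS array. Of 8 macrophage markers 5 were called lower after LPS in each genotype, and 1, Emr1, was called higher in KO cells. The summed levels of macrophage and neutrophil markers overlapped between LPS and unstimulated arrays in each genotype. Those of B cell and NK cell markers were lower on LPS arrays in each genotype. The sum of T cell markers overlapped in KO cells and was lower on LPS arrays in WT cells. Cd163, Cd79b, Klra8, Klrb1c, Cd2 and Lat were tested only because they were detected in unstimulated groups, and Lck only through LPS groups. The calls and sums that include these markers therefore cannot serve as tests of a fall. The part of these cell types in the receptors' values was not tested. In sorted bulk cells, fewer cells of a type and less RNA per cell cannot be told apart.

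LPS-treated cells differed from unstimulated cells in 5 of the 9 receptors, the same 5 in each genotype. Transcripts of Tnfrsf9, Tnfrsf1b, Fas and Tnfrsf11a were higher and those of Tnfrsf21 were lower. In KO cells 4 members were called higher (10.3% of all genes were) and 1 lower (10.5% of all genes), 5 in all where 20.8% of all genes were called. In WT cells 4 were called higher (9.48% of all genes) and 1 lower (10.7%), 5 in all where 20.2% of all genes were called. A call is an adjusted p under 0.05 in limma's moderated test, with Benjamini-Hochberg adjustment over all genes of the comparison. The median difference of the members was 1.30 in KO cells and 1.06 in WT cells on the log2 scale, beside medians of 0.05 and 0.00076 over all genes tested in KO and WT cells. The 13 other tested receptors of the superfamily had medians of -0.50 in KO and -0.24 in WT cells. The members were chosen with earlier results of these data known, so their median does not stand for the family.

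**Figure D1:**
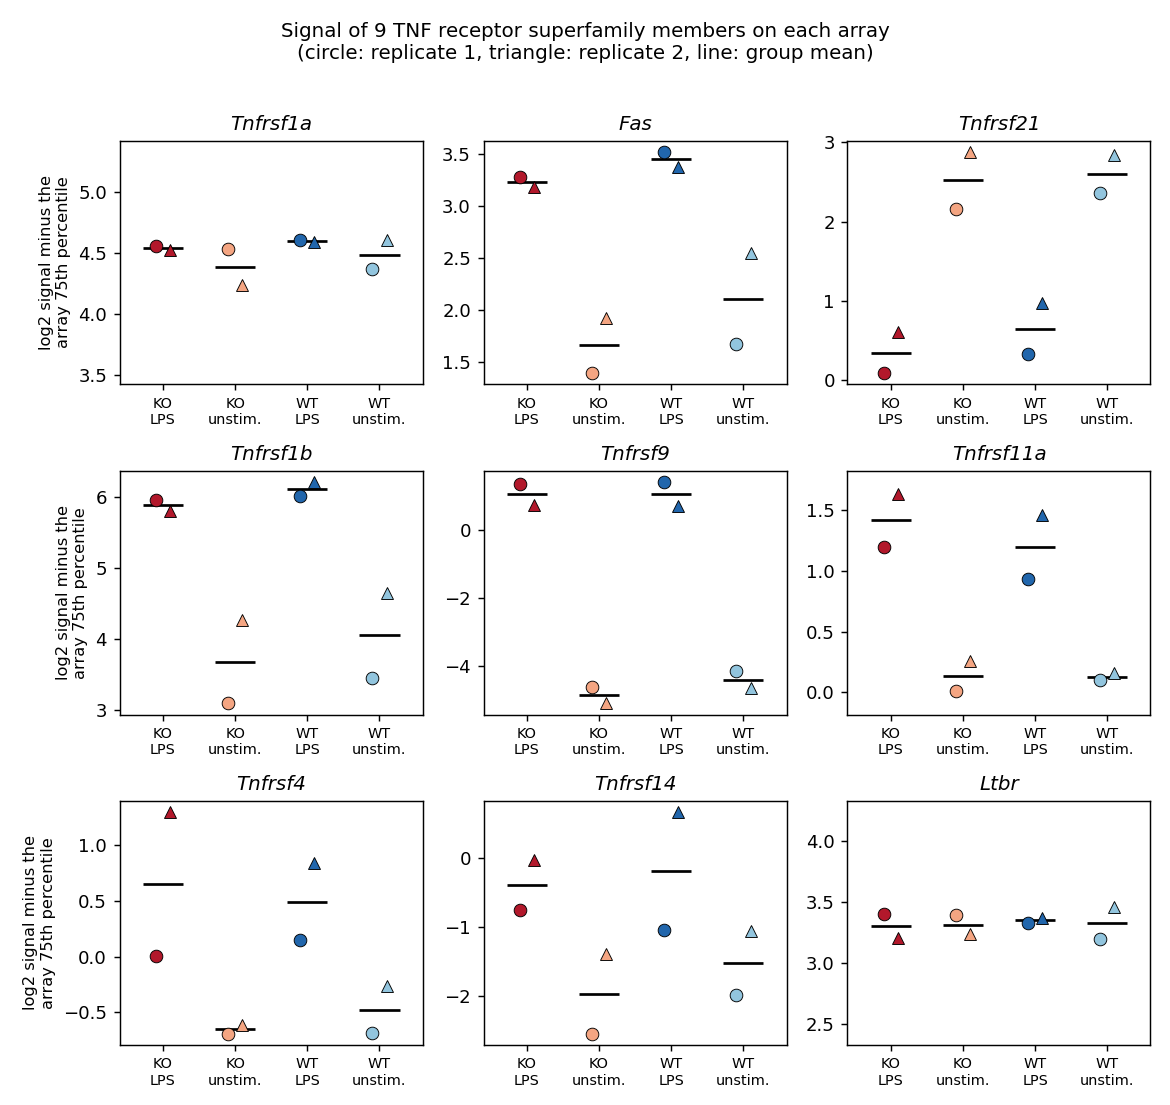
Scaled log2 signal (vertical axes, scaled to each gene) of the 9 receptors on each of the 8 arrays, by group (horizontal axes), with circles for replicate 1, triangles for replicate 2 and lines for group means. Tnfrsf9 lies between 0.70 and 1.40 on the LPS arrays and below -4.1 on the unstimulated arrays, and Tnfrsf21 is lower on the LPS arrays. Tnfrsf1a and Ltbr overlap between the LPS and unstimulated arrays of each genotype.

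Among the members with a death domain, Fas and Tnfrsf21 moved in opposite directions and Tnfrsf1a did not pass the test. Fas, the receptor for Fas ligand and a trigger of apoptosis, had scaled log2 signals of 3.28 and 3.18 on the KO LPS arrays, against 1.40 and 1.93 on the KO unstimulated arrays. In WT cells its signals were 3.52 and 3.38 after LPS, against 1.67 and 2.55 without it. Every LPS array was above every unstimulated array. The log2 difference was 1.57 ± 0.36 in KO cells (SE, n = 2 arrays per group, limma adjusted p = 0.0243) and 1.34 ± 0.36 in WT cells (limma adjusted p = 0.0420), folds of 2.97 and 2.53. Fas on chromosome 19 was measured by probe A_51_P345393 at chr19:34401902-34401961 (mm9), annotated to transcript variant 1. A second probe, A_52_P73385 at chr19:34383733-34383792, is annotated to transcript variant 2 and gave differences of 1.51 in KO and 1.45 in WT cells that were not called (limma adjusted p = 0.0908 and 0.101).

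Tnfrsf21, also called death receptor 6, fell. Its signals were 0.09 and 0.61 on the KO LPS arrays, against 2.16 and 2.88 on the KO unstimulated arrays. In WT cells they were 0.33 and 0.98 after LPS, against 2.36 and 2.84 without it. No LPS array reached any unstimulated array. The log2 difference was -2.17 ± 0.40 in KO cells (limma adjusted p = 0.0106) and -1.94 ± 0.40 in WT cells (limma adjusted p = 0.0166), which left 0.222 and 0.260 of the unstimulated signal. All 3 of its probes, which lie between chr17:43225326 and chr17:43226400 on the plus strand (mm9), were called lower in each genotype, with differences between -2.02 and -2.76 in KO cells and between -1.92 and -2.33 in WT cells. The dimmest of them, A_52_P198998, was well above background on 1 of the 4 LPS arrays.

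Tnfrsf1a, the p55 TNF receptor that most cells carry, had signals of 4.55 and 4.52 on the KO LPS arrays, against 4.53 and 4.24 on the KO unstimulated arrays. In WT cells they were 4.61 and 4.59 after LPS, against 4.36 and 4.60 without it. The groups overlapped in each genotype. The log2 difference was 0.15 in KO cells, with a 95% confidence interval of -0.44 to 0.75, and 0.11 in WT cells, with an interval of -0.48 to 0.70 (limma adjusted p = 0.705 and 0.789).

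The other TNF receptor, Tnfrsf1b or p75, which lacks a death domain and binds TRAF2, was higher after LPS. Its signals were 5.96 and 5.80 on the KO LPS arrays, against 3.09 and 4.27 on the KO unstimulated arrays. In WT cells they were 6.01 and 6.20 after LPS, against 3.46 and 4.65 without it. The LPS arrays lay close together and above all unstimulated arrays, which were themselves spread by more than 1 log2 unit within each genotype. The log2 difference was 2.20 ± 0.51 in KO cells (limma adjusted p = 0.0253) and 2.05 ± 0.51 in WT cells (limma adjusted p = 0.0328), folds of 4.59 and 4.15. A second probe, A_51_P278282, whose coordinates in the file span chr4:144812866-144813439 on the minus strand (mm9), gave differences of 1.71 in KO and 1.68 in WT cells that missed the threshold (limma adjusted p = 0.0697 and 0.0739).

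Tnfrsf9, the co-stimulatory receptor 4-1BB, had the largest difference of the 9 members in each genotype. Its signals were 1.35 and 0.72 on the KO LPS arrays, against -4.63 and -5.11 on the KO unstimulated arrays. In WT cells they were 1.40 and 0.70 after LPS, against -4.16 and -4.66 without it. The probe was well above background on all 4 LPS arrays but on only 1 of the 2 unstimulated arrays of each genotype. The log2 difference was 5.90 ± 0.39 in KO cells (limma adjusted p = 0.000301) and 5.46 ± 0.39 in WT cells (limma adjusted p = 0.000438), folds of 59.8 and 43.9 that rest on unstimulated signals near the background.

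The 3 Tnfrsf9 probes differed by where they lie, and their first 30 of 60 bases are shown for that reason, each with its mm9 coordinates on the plus strand.
A_52_P210511, chr4:150319106-150319165: acctcatccaagtctcttctaacgctaaca
A_52_P75441, chr4:150319552-150319611: tctgagaaaatgacagtttcagttggatct
A_51_P137836, chr4:150301838-150301897: gggtcggtctcagtccttaagtcttcagta
The first pair is annotated to Tnfrsf9 transcript variant 1, and both of its probes were called higher, the second with differences of 6.33 in KO and 6.21 in WT cells. A_51_P137836, annotated to a cDNA clone from DC, was not well above background on any of the 8 arrays. The last 40 bases of that probe were the first 40 of the 250-base window before the second Tnfrsf9 start, the one that holds the NF-kB consensus.

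Tnfrsf11a, or RANK, the receptor for RANK ligand, which promotes DC survival, was higher by a smaller amount. Its signals were 1.20 and 1.63 on the KO LPS arrays, against 0.01 and 0.25 on the KO unstimulated arrays. In WT cells they were 0.93 and 1.45 after LPS, against 0.10 and 0.16 without it. The groups did not overlap. The log2 difference was 1.28 ± 0.30 in KO cells (limma adjusted p = 0.0257) and 1.06 ± 0.30 in WT cells (limma adjusted p = 0.0484). Its second probe, A_51_P122906, was not called, with differences of 0.93 in KO and 1.13 in WT cells (limma adjusted p = 0.183 and 0.114).

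Tnfrsf4 and Tnfrsf14, better known from T cell co-stimulation as OX40 and HVEM, had higher signals on LPS arrays. Neither was called in the fit used here, which holds no block for slide or replicate number. Tnfrsf4 had signals of 0.01 and 1.29 on the KO LPS arrays, against -0.69 and -0.61 on the KO unstimulated arrays, and 0.15 and 0.84 on the WT LPS arrays, against -0.69 and -0.27 on the WT unstimulated arrays. Tnfrsf14 had signals of -0.75 and -0.03 on the KO LPS arrays, against -2.54 and -1.39 on the KO unstimulated arrays, and -1.04 and 0.66 on the WT LPS arrays, against -1.98 and -1.06 on the WT unstimulated arrays. Neither gene's groups overlapped, but in Tnfrsf14 the lowest WT LPS array stood just above the highest WT unstimulated array. The log2 difference of Tnfrsf4 was 1.30 ± 0.47 in KO cells (limma adjusted p = 0.0985) and 0.97 ± 0.47 in WT cells (limma adjusted p = 0.196). That of Tnfrsf14 was 1.58 ± 0.68 in KO cells (limma adjusted p = 0.153) and 1.33 ± 0.68 in WT cells (limma adjusted p = 0.215). A second Tnfrsf14 probe, A_51_P230589, was not called either, with differences of 1.25 in KO and 1.36 in WT cells (limma adjusted p = 0.217 and 0.182). The differences of both genes moved when single arrays were left out. For both genes the arrays numbered 2 lay above those numbered 1 in all 4 groups. A fit without 1 array is therefore also unbalanced for that shift. Tnfrsf4 was called in KO cells without KO LPS 1, with a difference of 1.95 (limma adjusted p = 0.0395), and its KO difference was 0.66 without KO LPS 2. In WT cells its difference was 0.62 without WT LPS 2. The Tnfrsf14 difference ran between 0.997 without KO unstimulated 1 and 2.15 without KO unstimulated 2 in KO cells. In WT cells it was 0.48 without WT LPS 2, 0.87 without WT unstimulated 1 and 2.18 without WT LPS 1. With slide as a block Tnfrsf14 was called in both genotypes, with differences of 2.29 in KO and 2.05 in WT cells (limma adjusted p = 0.0294 and 0.0434). With replicate number as a block Tnfrsf14 was again called in both genotypes (limma adjusted p = 0.0128 in KO and 0.0227 in WT cells). Tnfrsf4 was then called in KO cells (limma adjusted p = 0.0338). The labels do not say what a replicate number marks.

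Ltbr, the lymphotoxin beta receptor, which activates the non-canonical NF-kB pathway, had signals of 3.40 and 3.21 on the KO LPS arrays, against 3.39 and 3.24 on the KO unstimulated arrays. In WT cells they were 3.33 and 3.37 after LPS, against 3.20 and 3.46 without it. The groups overlapped, and the log2 difference was -0.01 in KO cells, with a 95% confidence interval of -0.60 to 0.57, and 0.02 in WT cells, with an interval of -0.56 to 0.61 (limma adjusted p = 0.978 and 0.963).

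**Figure D2:**
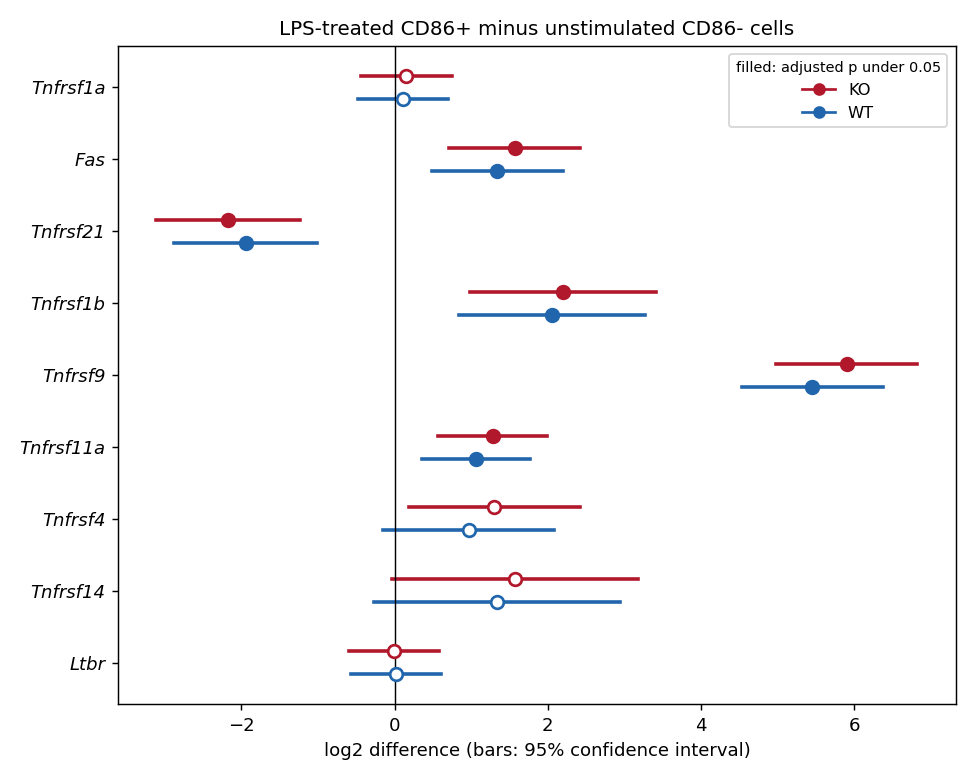
Log2 difference of each receptor between LPS-treated CD86+ and unstimulated CD86- cells (horizontal axis) with 95% confidence intervals, KO above WT for each gene, filled where called. The same 5 receptors are filled in both genotypes, from 5.90 in KO and 5.46 in WT cells for Tnfrsf9 to -2.17 and -1.94 for Tnfrsf21.

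The LPS and unstimulated arrays of a genotype did not overlap for 7 of the 9 members in KO cells, where this held for 63.7% of all genes, with 33.1% wholly above and 30.6% wholly below. It held for 7 members in WT cells and for 62% of all genes, with 30% wholly above and 32% wholly below. In each genotype Tnfrsf21 was the 1 member below. Of the 5 called members, Tnfrsf9 was called in each of the 20 alternative settings in which it was tested, in each genotype, with differences down to 3.81 in KO and 3.50 in WT cells under normexp background correction. A filter that required every array to be well above background left it out, since it passed the filter used here only through the LPS groups. Under normexp correction the adjusted p of Tnfrsf1b, Fas and Tnfrsf11a was 0.198, 0.365 and 0.345 in KO cells, and that of Tnfrsf1b, Fas, Tnfrsf11a and Tnfrsf21 was 0.124, 0.360, 0.502 and 0.0607 in WT cells (limma). Several of these calls were lost when single arrays were left out. Such a fit also has fewer residual degrees of freedom. Some adjusted p were near the threshold as reported, such as 0.0420 for Fas and 0.0484 for Tnfrsf11a in WT cells (limma). Leaving out a KO array did not change the WT differences themselves.

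In KO cells Fas missed the threshold without any 1 of the 4 KO arrays, with differences of 1.30 to 1.84 (limma adjusted p = 0.0580 to 0.107), and so did Tnfrsf11a, with differences of 1.07 or more (limma adjusted p = 0.0602 to 0.149). Tnfrsf1b missed it without KO LPS 1, KO LPS 2 or KO unstimulated 1, with differences of 1.61 to 2.28 (limma adjusted p = 0.0842 to 0.102). Tnfrsf21 missed it without KO LPS 1 or KO unstimulated 2, with differences of -1.91 and -1.81 (limma adjusted p = 0.0605 and 0.0669). In WT cells Tnfrsf11a missed it without any 1 of the 8 arrays, with differences of 0.80 to 1.32 (limma adjusted p = 0.0668 to 0.224). Fas missed it without any 1 of them other than WT unstimulated 2, with differences of 0.90 to 1.41 (limma adjusted p = 0.0519 to 0.166). Tnfrsf1b missed it without WT LPS 1, WT LPS 2 or WT unstimulated 1, with differences of 1.46 to 2.15 (limma adjusted p = 0.105 to 0.133), and Tnfrsf21 without WT LPS 1 or WT unstimulated 2, with differences of -1.62 and -1.70 (limma adjusted p = 0.0906 and 0.0736). All these differences had the direction of the full fit.

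Slide and group overlapped only in part, so each response was also measured within a slide that held both groups. Slide 2 held 1 KO unstimulated array and slide 1 held 1 WT LPS array, so these tests took their spread from the 1 group with both arrays on the slide and assume that the lone array varied alike. Within slide 2 the KO differences were 5.66 for Tnfrsf9, 2.79 for Tnfrsf1b, 1.84 for Fas, 1.41 for Tnfrsf11a and -1.81 for Tnfrsf21. Within slide 1 the WT differences were 5.11 for Tnfrsf9, 2.15 for Tnfrsf1b, 1.27 for Fas, 1.32 for Tnfrsf11a and -1.62 for Tnfrsf21. Every direction was that of the full fit. Of these 5 members only Tnfrsf9 was called within a slide (limma adjusted p = 0.0427 in KO cells and 0.00554 in WT cells), and a missed threshold says little for the other members at this number of arrays. With slide as a block the same members were called, except that Fas missed the threshold in WT cells (limma adjusted p = 0.0746) and Tnfrsf14 passed it in both genotypes.

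**Figure D3:**
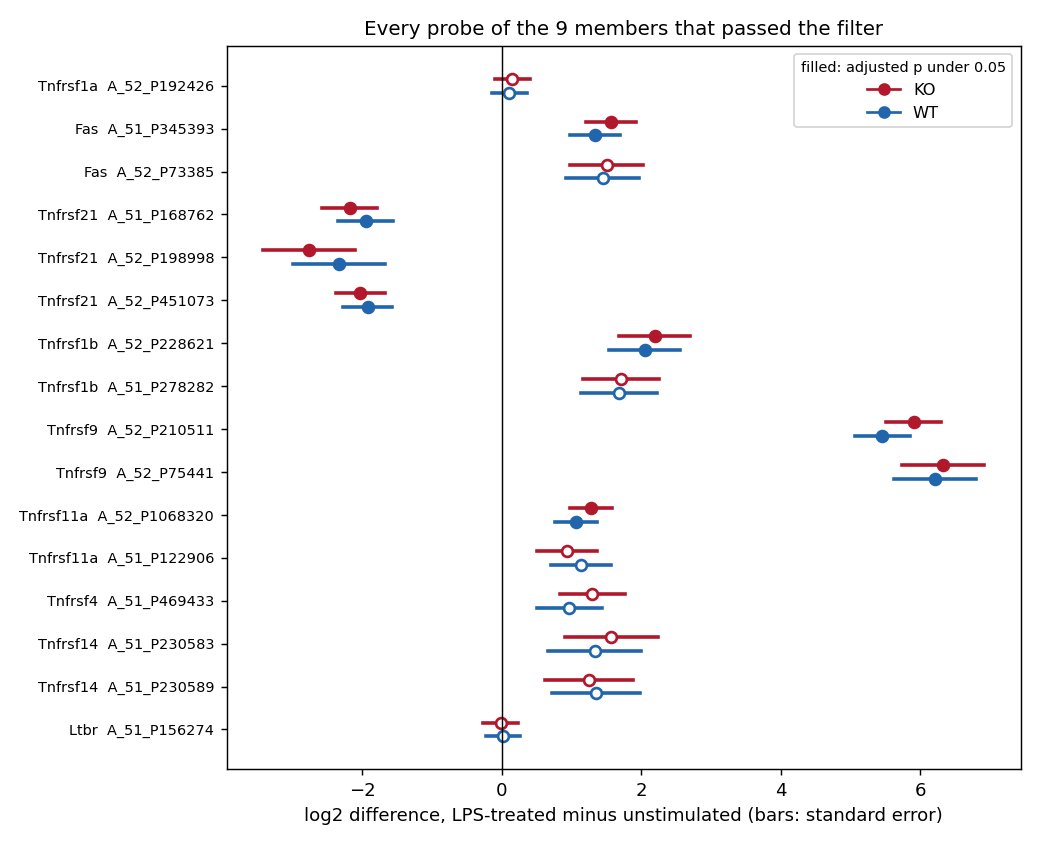
Log2 difference between LPS-treated and unstimulated cells (horizontal axis, bars are standard errors) for each of the 16 probes that passed the filter, KO above WT, filled where called with adjustment over all probes. The 3 Tnfrsf21 probes lie below 0 and are filled in both genotypes, whereas the second probes of Fas, Tnfrsf1b and Tnfrsf11a lie on the same side as the first and are open.

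The comparison of miR-155 KO with WT cells called none of the 9 receptors in either state. In LPS-treated cells 0 members were called by limma and 0 had an unadjusted p under 0.05, where 0.026% of all genes were called, all of them lower. In unstimulated cells both counts were again 0, where 0.24% of all genes were called, 0.0195% higher and 0.221% lower. Averaged over both states they were 0, where 0.143% of all genes were called, 0.026% higher and 0.117% lower. The KO arrays lay wholly below the WT arrays after LPS for 3 members, Tnfrsf1a, Tnfrsf1b and Fas, and wholly above for 0 (arrays of 21.2% of all genes did not overlap in this comparison, with 11.5% wholly above and 9.67% wholly below).

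After LPS, Fas had the signals given above of 3.28 and 3.18 in KO cells, against 3.52 and 3.38 in WT cells, a log2 difference of -0.22 with a 95% confidence interval of -1.08 to 0.64. For Tnfrsf1b the difference was -0.23, with an interval of -1.44 to 0.98. For Tnfrsf9 it was -0.01, with an interval of -0.94 to 0.91, so that the interval holds differences of nearly 1 log2 unit either way. Across the 9 members the differences after LPS ran from -0.30 for Tnfrsf21 to 0.22 for Tnfrsf11a. The intervals were narrowest for Ltbr, from -0.63 to 0.54, and Tnfrsf1a, from -0.65 to 0.53, and widest for Tnfrsf14, from -1.80 to 1.41.

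In unstimulated cells 8 of the 9 differences between KO and WT were below 0, and none passed the test. They ran from -0.46 for Tnfrsf9, -0.45 for Fas and -0.44 for Tnfrsf14 to 0.0014 for Tnfrsf11a, with intervals of -1.39 to 0.46 for Tnfrsf9 and -1.30 to 0.41 for Fas. The Tnfrsf9 probe was well above background on 1 unstimulated array of each genotype, so its difference and its place at the end of this range rest on signals near the background. The genotypes overlapped in all 9 members in this state, where the arrays of 20.9% of all genes did not overlap, with 8.08% wholly above and 12.8% wholly below.

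The LPS responses of KO and WT cells were also set against each other. The difference between the responses, KO minus WT, was called for 0 members, where 0.0455% of all genes were called, 0.039% higher and 0.00649% lower, and 0 had an unadjusted p under 0.05 in limma. It was 0.45 for Tnfrsf9, with a 95% confidence interval of -0.86 to 1.75, and -0.23 for Tnfrsf21, with an interval of -1.55 to 1.10. For Tnfrsf1b it was 0.14, with an interval of -1.57 to 1.86, and for Tnfrsf14 0.24, with an interval of -2.03 to 2.51. With 2 arrays per group, a difference of 1 log2 unit above 0 lay within these 4 intervals. A difference of 1 log2 unit below 0 lay within all of them except that of Tnfrsf9.

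**Figure D4:**
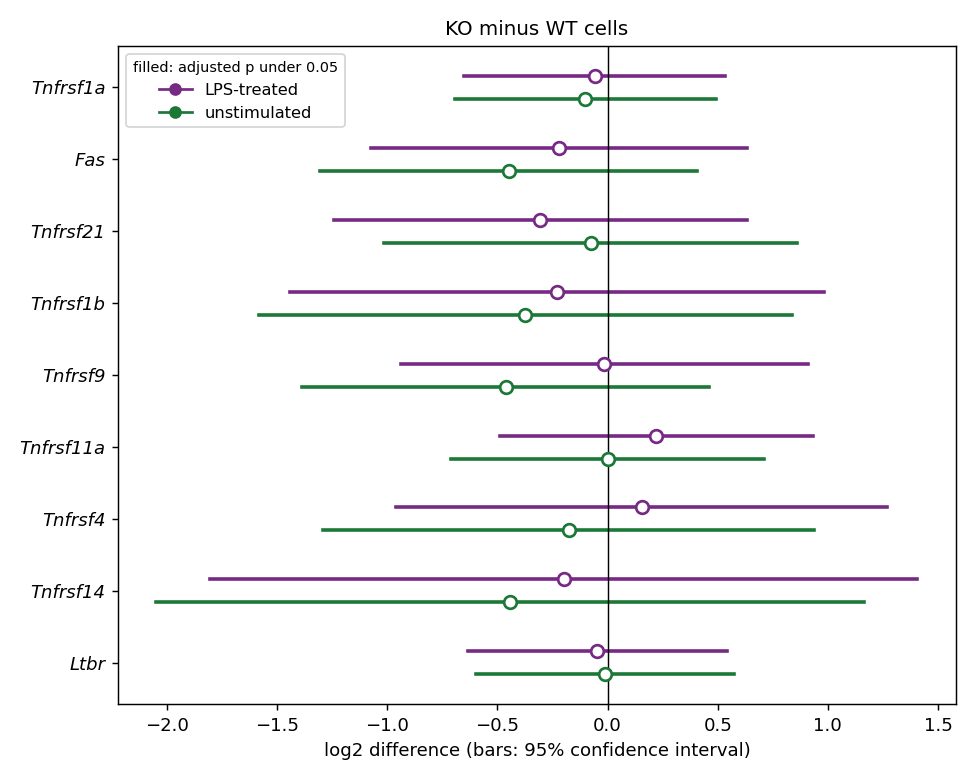
Log2 difference of each receptor between miR-155 KO and WT cells (horizontal axis) with 95% confidence intervals, LPS-treated above unstimulated for each gene, filled where called. All 18 intervals cross 0 and no point is filled.

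The members also differed in how far their replicates lay apart. The pooled standard deviation between replicates was 0.84 for Tnfrsf14, 0.60 for Tnfrsf1b and 0.54 for Tnfrsf4, against 0.13 for Ltbr and 0.14 for Tnfrsf1a, beside a median of 0.37 over all genes. The arrays numbered 2 were above those numbered 1 in all 4 groups for 4 members, Tnfrsf4, Tnfrsf14, Tnfrsf11a and Tnfrsf21, and below them in all 4 for Tnfrsf9. Over all genes 17.4% lay above and 11.9% below in all 4 groups. In Tnfrsf1b and Fas the arrays differed mainly without LPS, by 1.18 in KO and 1.19 in WT cells for Tnfrsf1b and by 0.53 in KO and 0.87 in WT cells for Fas.

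By position on mm9, 4 of the members lie on chromosome 4, 2 on chromosome 6, and Tnfrsf11a, Tnfrsf21 and Fas on chromosomes 1, 17 and 19. The probes of Ltbr and Tnfrsf1a on chromosome 6 are 55.8 kb apart, and neither gene passed the test. The probes of Tnfrsf4 and Tnfrsf18 on chromosome 4 are 12.2 kb apart. Tnfrsf18, the receptor GITR, was called lower, with log2 differences of -2.60 in KO and -2.31 in WT cells (limma adjusted p = 0.00476 and 0.00791), whereas the differences of Tnfrsf4, given above, were positive and not called.

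For each member the genes whose signals over the 8 arrays, after centring, lay closest to its own were found among 11559 candidates. The closest to Tnfrsf9 were Icos, a T cell co-stimulatory receptor, and Tpbg, at root mean square distances of 0.31 and 0.32 log2 units. The closest to Tnfrsf1b were Paqr5 and Chst1 (0.13 and 0.14), to Tnfrsf11a Zfp296 and Crtc2 (0.087 and 0.091), to Tnfrsf21 Sash3 and Slx1b (0.12 and 0.14) and to Fas Gm11127 and H2-Q10 (0.12 and 0.12), MHC class I genes whose close copies may share probes. For the members that were not called they were Ocrl and Cbll1 for Tnfrsf1a, Mon1b and Smad1 for Tnfrsf4, Rnf135 and Klhl35 for Tnfrsf14, and Dram2 and Srp72 for Ltbr, at distances between 0.045 and 0.19. The arrays share the split by LPS, so these likenesses are descriptions.

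The other genes of the pathway were read from lists. The counts of every list stand beside the shares of all genes. In KO cells 10.3% of all genes were called higher and 10.5% lower. In WT cells 9.48% were called higher and 10.7% lower. Of 13 tested receptors outside the 9 members, 2 were called higher and 3 lower in KO cells, and 1 higher and 2 lower in WT cells. Among them Eda2r and Ngfr, and Rel in the NF-kB list below, were tested only because they were detected in LPS groups. Tnfrsf13c and Tnfrsf25 were tested only through unstimulated groups. Counts that include these genes therefore cannot serve as tests of a change. Cd40, which T cells engage to license DC, was higher by 8.42 in KO and 8.02 in WT cells on the log2 scale (limma adjusted p = 0.000748 and 0.00105). Tnfrsf12a, the TWEAK receptor, was called lower, with differences of -2.23 in KO and -1.73 in WT cells (limma adjusted p = 0.00531 and 0.0144).

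Of 11 tested ligands of the TNF family, some of which bind none of the 9 members, 6 were called higher and 1 lower in each genotype. Of those called higher, Lta, Tnfsf4, Tnfsf10 and Tnfsf15 were tested only because they were detected in the LPS groups. This count therefore cannot serve as a test of a rise. Tnf, which binds Tnfrsf1a and Tnfrsf1b, was higher by 4.11 in KO and 3.84 in WT cells. Tnfsf9 and Tnfsf4, the ligands of Tnfrsf9 and Tnfrsf4, were higher by 2.88 and 4.87 in KO cells and by 2.47 and 5.38 in WT cells, Tnfsf4 being well above background on 1 unstimulated array of each genotype. Lta, whose product can join lymphotoxin beta to bind Ltbr, was higher by 6.24 in KO and 6.31 in WT cells and was likewise well above background on 1 unstimulated array of each genotype, while Ltb differed by -3.01 in KO and -2.74 in WT cells. Tnfsf14, a ligand of Ltbr and Tnfrsf14, was not called, with differences of -4.20 in KO and -4.47 in WT cells (limma adjusted p = 0.0782 and 0.0658). It was not well above background on KO LPS 2 or WT LPS 2, so the sizes of these differences rest on signals near the background. Tnfsf15, called higher, had signals of 0.70 and 1.71 on the KO LPS and 1.33 and 1.86 on the WT LPS arrays. It was not well above background on any unstimulated array. Tnfsf10, also called higher, had signals of -1.12 and -0.83 on the KO LPS and -0.71 and -0.08 on the WT LPS arrays. Of the unstimulated arrays it was well above background on KO unstimulated 1 alone.

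Of 29 adaptors and kinases tested, 12 were called higher and 0 lower in KO cells, and 11 higher and 0 lower in WT cells. Traf1, an adaptor of Tnfrsf1b and Tnfrsf9, was higher by 4.18 in KO and 3.77 in WT cells. Cflar, the inhibitor of caspase-8 activation below Fas, was higher by 3.82 in KO and 3.66 in WT cells, and Tnfaip3, the ubiquitin-editing inhibitor A20, by 3.75 in KO and 3.55 in WT cells. Traf2 was higher by 1.30 in KO and 1.01 in WT cells, whereas the death-domain adaptors Tradd and Fadd were not called, with differences between 0.11 and 0.17 in KO cells and between -0.03 and 0.20 in WT cells. Of 10 NF-kB subunits and inhibitors 9 were called higher in KO and 6 in WT cells, among them Nfkbiz, by 4.35 in KO and 3.96 in WT cells, and Nfkb2, the precursor of the non-canonical subunit, by 3.19 in KO and 2.69 in WT cells. Of the sheddases Adam10 and Adam17 and their inhibitor Timp3 none was called. No gene of these lists was called in the comparisons of KO with WT cells.

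**Figure D5:**
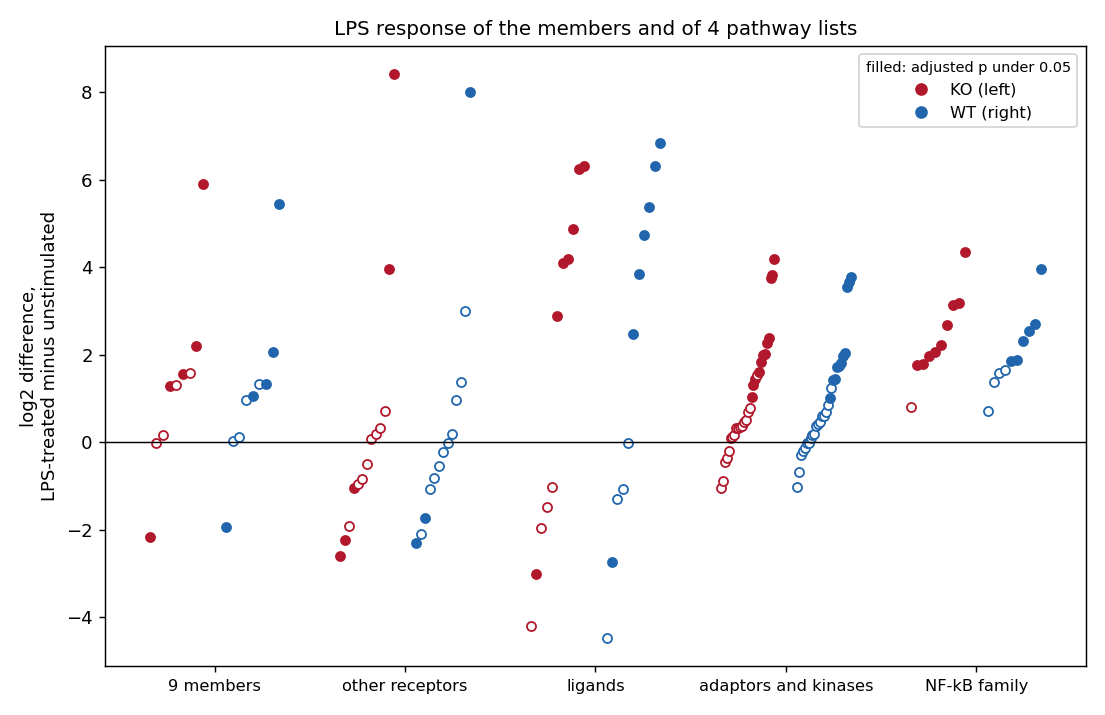
Log2 difference between LPS-treated and unstimulated cells (vertical axis) of each tested gene of the 9 members and of 4 pathway lists (horizontal axis), KO left of WT, filled where called. Cd40, at 8.42 in KO and 8.02 in WT cells, lies above all other genes drawn, and among the adaptors and kinases no filled point lies below 0.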

How the data were processed

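RNA was hybridised to 8 one-colour Agilent arrays, 2 for each of 4 groups taken from the sample labels. Scans were read with Agilent Feature Extraction, using mm9 annotation, per the file headers. The deposited intensity values, on a linear scale, were the processed signal and, for an alternative, the raw mean and background signals. The deposited spot flags are of another unit, a score of 0 or 1, and mark spots above background or outlying. The deposited series table of log2 values was, as checked, the log2 processed signal minus a constant per array.

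Outlying spots were dropped, each array's 75th percentile was subtracted from log2 of its processed signal, and spots of a probe were averaged. Kept probes stood well above background on both replicates of 1 group or more, and each gene name was represented by its brightest probe. Group means were fitted with limma 3.58.1 (R 4.3.3) to all genes, with 4 residual and 2.88 prior degrees of freedom. The 2-sided p-values of 6 comparisons were adjusted by the Benjamini-Hochberg method over all genes. The script was tested on simulated data. The number of arrays limits the precision. Promoters and miRNA sequences came from RefSeq (GRCm38.p6), in which all 9 members matched by symbol.

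The members, the pathway and marker lists and the tests were chosen with earlier results of these data known. Named genes are all members, the 2 nearest genes of each, and of each pathway list 2 to 6 of the genes with the largest called difference in WT cells, plus Cd40, Tnf, Lta, Tnfsf9, Tnfsf4, Traf1 and Cflar. Traf2, Tradd, Fadd, Tnfsf14, the sheddases and the markers named were chosen after their values were seen. Slides were read from the barcodes of the scans. Alternatives changed the background correction, normalization, filter, probe choice, arrays fitted, slide, replicate block, variance trend and single arrays.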

Additional observations from a re-analysis of the deposited data

How the results depend on the processing

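In the comparisons of KO with WT cells and in the difference of their LPS responses, 0 members were called under every alternative run. As reported, 5 members were called for the LPS response in KO cells. Of all 9 members, 2 were called with normexp background correction, 1 within slide 2, and 2 to 5 when single arrays were left out. Without KO LPS 1 the 2 were Tnfrsf9 and Tnfrsf4, so that 1 of the 5 was still called. In WT cells, where 5 were called as reported, 1 was called with normexp, 1 within slide 1, 2 without the filter on dim probes, where 9.07% of all genes were called, 3 with only the arrays of the comparison, where 14.6% were, and 1 to 3 when single arrays were left out. With slide and replicate number as blocks together, an alternative added after the data were seen, 3 were called in KO and 2 in WT cells. The 3 were Tnfrsf9, Tnfrsf21 and Tnfrsf14, the last not called as reported. The other alternatives called 4 to 7.

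Of 1092 member differences recomputed under the alternatives, 98 changed sign, and none of these passed the test in either setting. Normexp lowered the share of all genes called to 6.03% in KO and 4.41% in WT cells and raised the share of calls that were higher to 61.8% in KO, against 49.6% as reported, and to 61.1% in WT, against 47%. The counts over all genes, 3201 in KO and 3105 in WT cells as reported, were 929 and 679 with normexp, 445 within slide 2 in KO and 1533 within slide 1 in WT cells, 1608 and 1460 with slide and replicate number as blocks, and 1423 to 3107 in KO and 1441 to 2865 in WT cells when single arrays were left out. Between genotypes they were 0 to 5 after LPS, against 4 as reported, and 0 to 56 in unstimulated cells, against 37. Within slide 2, 65.4% of the KO calls were higher. Normexp also placed the median difference of all genes at 0.15 in KO cells, against 0.05 as reported. The causes were not tested.

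Samples with the same replicate number deviated together to unequal degrees, with correlations of 0.0131 to 0.692 between groups, 0.204 between the 2 KO groups and 0.132 between the 2 WT groups. The labels do not say that a number marks a shared animal, litter or day, and with 2 numbers the pairing was not settled. With the replicate block 7 members were called in KO and 6 in WT cells, Tnfrsf14 being added in both (limma adjusted p = 0.0128 in KO and 0.0227 in WT cells) and Tnfrsf4 in KO cells (limma adjusted p = 0.0338). Over all genes the called share was then 27.2% in KO and 27% in WT cells. The 2 arrays per group limit every interval, and unstimulated signals of Tnfrsf9 were near background.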
